A study of Homo sapiens with 8 samples.

Results

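Distal H3K27ac peaks lying more than 2 kb and at most 50 kb from the nearer annotated transcription start site (TSS) were described in clones of CFPAC1, a long-established human line of pancreatic ductal adenocarcinoma. They were taken from the authors' peak table as the peaks under 20000 bp wide that held no named TSS and whose smaller distance to a flanking TSS fell in that range. This gave 14627 of the 31961 peaks (45.8%). No measured score entered the rule, which was chosen with earlier results of these data known. The other peaks were 9096 promoter peaks that held a TSS, 4778 remote peaks over 50 kb from a TSS, 2010 peaks within 2 kb of a TSS that they did not hold, and 1450 broad peaks of 20000 bp or more. H3K27ac was measured by chromatin immunoprecipitation and sequencing in 8 libraries. Control clones 1 and 4 had been infected with the lentiCRISPRv2 plasmid, with no guide named, and IRF1-guide clones 11 and 13 with the plasmid carrying Cas9 and a guide RNA against IRF1. Each of the 4 clones gave 1 untreated library (UT in the labels) and 1 library after 2 h of hIFNb (taken to be human interferon beta), which makes 4 groups of 2 libraries. The title of the series concerns IRF1 and metabolism in pancreatic cancer of low grade, and the comparisons ask where the mark differed with hIFNb and between the genotypes.

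H3K27ac is acetylation of histone H3 at a lysine near its end, and is laid down mainly by the acetyltransferases p300 and CBP. It marks active promoters and active enhancers, the regulatory elements that act on promoters from a distance, and an enhancer often gains the mark when a stimulus activates the transcription factors bound to it. Type I interferons such as interferon beta act through the receptor-bound kinases JAK1 and TYK2 on a complex of STAT factors with IRF9, which binds the interferon-stimulated response element, while IRF1 is an interferon-induced factor that binds closely related GAAA repeats. A nearer TSS names a peak here by distance only and does not show that the peak acts on that gene. Each clone is 1 clonal line, so that a difference between control and IRF1-guide clones rests on 2 clones against 2 and cannot be told apart from other differences between those clones. The labels name the guide and do not show whether a clone lacks the IRF1 protein. A score averages the cells of a library, so fewer marked cells and less mark per cell cannot be told apart.

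DNA sequence was at hand for the distal peaks that hold the start window of a RefSeq gene, from 250 bases before to 50 bases after a start, in the table of windows used here (GRCh38.p14). The authors' TSS set named no TSS in these peaks, so that the starts are further or alternative ones. Such windows, 741 in all, lay whole inside 579 distal peaks (3.96%), and 391 of these peaks held a protein-coding start. Among the 579 peaks, 33 rose (5.7%) and 17 fell (2.94%) with hIFNb over all clones, near the 7.1% and 2.78% of the 14048 distal peaks without a window. The GAAANNGAAA form of the response element, searched on both strands and therefore also as TTTCNNTTTC, occurred in the windows of 8 of the 33 rising peaks (24.2%), 0 of the 17 falling peaks and 24 of the 529 peaks not called (4.54%). It occurred in 1255 of the 35116 windows of the whole table (3.57%). The windows below come from rising peaks with a match before the start, are written from the strand of the gene up to at most the start, and show the match in capitals:

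RUFY4 start window, chr2:218069003-218069057, plus strand: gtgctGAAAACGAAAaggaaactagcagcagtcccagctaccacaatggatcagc

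LOC124900953 start window, chr5:31854729-31854818, plus strand: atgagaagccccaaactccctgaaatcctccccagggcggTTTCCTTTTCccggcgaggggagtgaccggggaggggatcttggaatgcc

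NPR3 start window, chr5:32710446-32710535, plus strand: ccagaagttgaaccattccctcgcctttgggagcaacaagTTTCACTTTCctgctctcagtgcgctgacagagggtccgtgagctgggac

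SEC16B start window, chr1:177970319-177970408, minus strand: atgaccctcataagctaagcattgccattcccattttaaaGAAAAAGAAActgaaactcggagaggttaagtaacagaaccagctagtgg

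NCOA7 start window, chr6:125919171-125919254, plus strand: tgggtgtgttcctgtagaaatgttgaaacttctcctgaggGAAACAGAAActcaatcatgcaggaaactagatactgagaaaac

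LOC124903347 start window, chr14:74514718-74514807, plus strand: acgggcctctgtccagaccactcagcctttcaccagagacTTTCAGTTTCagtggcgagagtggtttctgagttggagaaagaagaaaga

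C2CD2 start window, chr21:41926827-41926916, minus strand: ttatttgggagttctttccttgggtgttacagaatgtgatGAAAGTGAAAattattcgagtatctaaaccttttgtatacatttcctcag

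The match began 44 bases before the NCOA7 start and 245 bases before the RUFY4 start, with the others in between. In the eighth rising peak with a match, at SEPTIN4, the match lay past the start and is not shown. The peak over the NCOA7 start (chr6:125913450-125921097), a nuclear receptor coactivator gene with a known interferon-inducible short form, scored 70 and 82 in the untreated control libraries, 155 and 144 after hIFNb, 52 and 41 in the untreated IRF1-guide libraries and 97 and 124 after hIFNb. All 4 hIFNb libraries lay above all 4 untreated ones, a log2 change of 1.10 ± 0.17 (standard error, SE; adjusted p = 0.00321). In these and all later lists of 8 scores, the order is control clones 1 and 4, then IRF1-guide clones 11 and 13. The peak at the RUFY4 start rose from 10 and 4 to 63 and 49 in control clones and from 10 and 3 to 32 and 29 in IRF1-guide clones (2.59 ± 0.38, adjusted p = 0.00251). The peak over the SEC16B start, a gene for a protein of endoplasmic reticulum exit sites, rose from 48 and 43 to 124 and 172 and from 36 and 43 to 115 and 109 (1.57 ± 0.18, adjusted p = 0.000542). After hIFNb its IRF1-guide libraries lay just below the control libraries. The NPR3 and C2CD2 peaks passed in the full set of libraries (log2 1.76 and 0.55), and their adjusted p rose to 0.137 and 0.13 at most when a library was left out.

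The interferon-gamma type element TTCNNNGAA lay in the windows of 2 of the 33 rising peaks (6.06%) and 48 of the 529 not called (9.07%), against 7.66% of all windows. The AP-1 element TGANTCA was present in 6 of the rising (18.2%), 5 of the falling (29.4%) and 94 of the peaks not called (17.8%), against 7.71% of all windows. Windows of 1 peak were pooled in these counts, so a peak with several windows had more letters to match, and the letters of a match do not show that a factor binds. Of the peaks over a start without the GAAANNGAAA letters in its window, the ADAR peak (chr1:154606191-154611906) covers another start of the gene of the double-stranded RNA editing enzyme, with the TSS used by the authors 16.1 kb from the peak. It scored 84 and 107, then 171 and 186 with hIFNb in control clones, and 75 and 85, then 236 and 198 in IRF1-guide clones (1.17 ± 0.15, adjusted p = 0.00127). The TSS peak that the authors named for ADAR scored 22 and 35, then 27 and 32 in control clones, and 30 and 30, then 70 and 42 in IRF1-guide clones, with an adjusted p of 0.271. The LYSMD2 peak (chr15:51727265-51738065) scored 112 and 96, then 379 and 291, and 36 and 63, then 166 and 179 (1.75 ± 0.19, adjusted p = 0.00051).

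Distal peaks were narrower and weaker than promoter peaks. Their median width was 3311 bp (quartiles 1662 and 6141), against 3670 bp for promoter peaks. The median of the mean score over the 8 libraries was 37.5 (quartiles 17.6 and 81.6), against 65.1 for promoter peaks and 37.4 for remote peaks, and per kb of peak it was 12.2, 17.2 and 11.6. Distal peaks covered 66.2 Mb, 34.7% of the length of all peaks, and held 28.3% of the mean score. The nearer TSS lay at a median of 16.0 kb. Peak centres fell inside a RefSeq protein-coding gene for 7687 distal peaks (52.6%). The peaks named 9864 nearer TSSs, of which 6662 had 1 distal peak and 100 had 5 or more, with 8 at most.

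The limits of the rule cut through a continuum. Peaks just inside the lower distance limit (over 2 to 2.2 kb, n = 90) had a median score of 37.5, and those just outside it (1.8 to 2 kb, n = 92) had 42.6. At the upper limit the medians were 38.4 inside (48 to 50 kb, n = 230) and 42.4 outside (50 to 52 kb, n = 234). At the width limit they were 321 inside (18000 to 20000 bp, n = 133) and 356 outside (20000 to 22000 bp, n = 95).

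The libraries were alike in total. Scores summed to between 3277561 and 3460390 per library over all peaks and to between 896944 and 993530 over distal peaks, and from 33 to 97 distal peaks per library were listed at 0. The scores are rounded normalised values, so alike totals do not show alike read depth, and the depth is unknown. Low whole numbers that no peak scored were counted in each library. There were 0 and 0 in untreated control clones and 10 and 29 with hIFNb. There were 12 and 30 in untreated IRF1-guide clones and 13 and 19 with hIFNb. These gaps thus differed along both comparisons, and whether scaling or depth differed with them was not tested. As a check of the cell type over all peaks, each of 11 epithelial and ductal marker genes was overlapped by a peak, with the highest mean score per gene between 108 and 5070. Of 14 markers of blood, endothelial, fibroblast, acinar and islet cells 8 were overlapped (10.8 to 814), and INS, GCG, PRSS1, LUM and DCN were among the 6 overlapped by no peak. The median of these scores was 451 for the epithelial and ductal genes and 125 for the 8 others. The ranges overlapped: CPA1 (814), PTPRC, PECAM1, CD3E and VWF scored above EPCAM, the lowest epithelial marker (108). A peak anywhere over the gene was counted, so an overlap alone does not tell the cell types apart.

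After 2 h of hIFNb, H3K27ac rose at 1031 distal peaks and fell at 407 over all clones in the group-means model of limma. These were 7.05% and 2.78% of the distal peaks, 9.83% together, beside 9.13% of all 31961 peaks (6.55% higher and 2.58% lower). With the clone as a block the counts were 2304 and 2575, beside 32.4% of all peaks (16.6% higher and 15.9% lower). The rising peaks had median scores of 18 and 18 in untreated control clones, 70 and 69 with hIFNb, 13 and 16 in untreated IRF1-guide clones and 33 and 32 with hIFNb. The falling peaks had medians of 119 and 115, then 58 and 63 in control clones, and 112 and 105, then 65 and 71 in IRF1-guide clones. Rises were the larger changes, with a median log2 change of 1.44 against -0.78, and 795 of the 1031 rises but 87 of the 407 falls reached 1 or more on the log2 scale. All 4 hIFNb libraries lay outside the range of the untreated ones at 640 of the rises (62.1%) and 311 of the falls (76.4%), beside 7.22% and 5.15% of all peaks. The rises and falls were called from these same libraries, so the shares describe them and test nothing. Each refit with a library left out gave fewer calls than the full set of libraries, with the fewest without control clone 1 after hIFNb. Some calls of each refit were new.

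**Figure D1:**
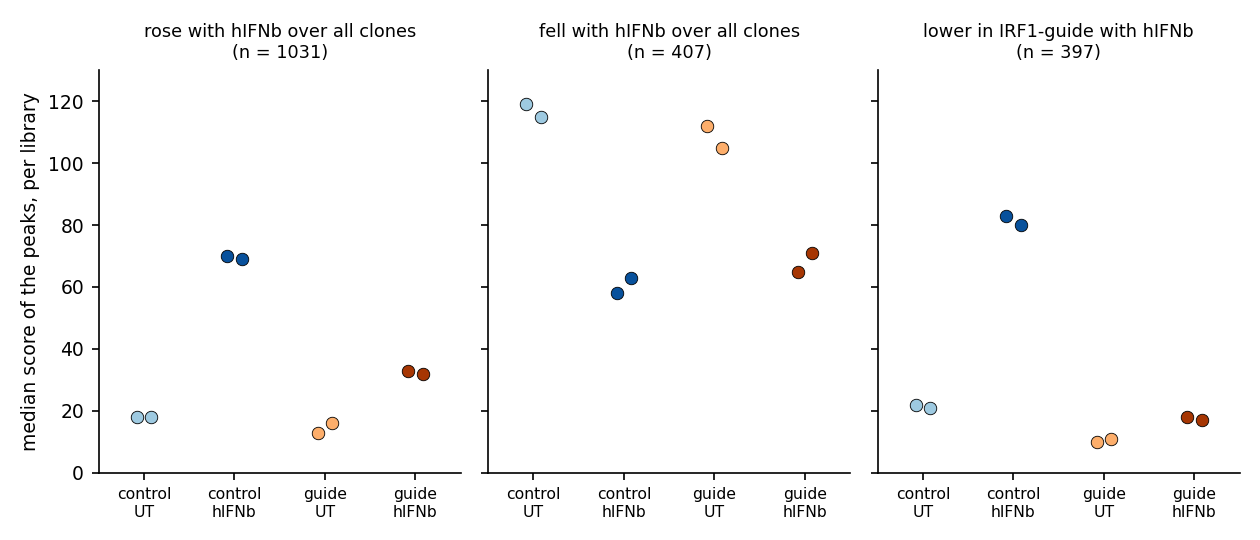
Median deposited score (vertical axis) of the distal peaks that rose with hIFNb, fell with hIFNb, or were lower in IRF1-guide than in control clones with hIFNb, with 1 point per library and 2 clones per group along the horizontal axis (UT is untreated). The rising peaks reached 70 and 69 in control clones with hIFNb and 33 and 32 in IRF1-guide clones, while the falling peaks reached similar levels in both; the peaks were chosen on these scores, so the points describe the sets and test nothing.

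The largest rise was over the gene body of LINGO1, a neuronal transmembrane protein, 24.5 kb from the TSS of its antisense transcript LINGO1-AS1 (chr15:77609005-77617295). It scored 7 and 6, then 261 and 110 in control clones, and 2 and 3, then 162 and 123 in IRF1-guide clones (4.93 ± 0.29, adjusted p = 2.77e-05). The peak was at or under 7 in every untreated library and over 100 in every hIFNb library. A peak 34.3 kb from the TSS of IRF8 (chr16:85856127-85864839), an interferon regulatory factor best known in myeloid and B cells, scored 8 and 7, then 220 and 168, and 7 and 4, then 54 and 23 (3.52 ± 0.31, adjusted p = 0.000156). Here the hIFNb libraries of the genotypes did not overlap, with the control clones higher. A peak 5.2 kb from NOS2, the inducible nitric oxide synthase gene (chr17:27805730-27813312), scored 13 and 17, then 251 and 141, and 5 and 3, then 60 and 31 (3.37 ± 0.30, adjusted p = 0.000171).

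The other rises taken by size included a peak 8.09 kb from KRT82, a hair keratin gene, which scored 6 and 7, then 76 and 77, and 7 and 1, then 77 and 60 (3.74 ± 0.39). Its hIFNb scores were alike in both genotypes. A peak 18.8 kb from MAST4, a kinase gene, scored 2 and 3, then 51 and 42, and 1 and 0, then 13 and 14 (3.56 ± 0.37), so that the guide clones rose to a lower level. Near MYH7, which encodes a cardiac myosin heavy chain, a peak at 10.3 kb scored 7 and 2, then 69 and 62, and 2 and 7, then 35 and 43 (3.39 ± 0.40). Peaks nearest to LOC105374573, LOC105379391, HNRNPK and MDS2 completed the 10, with log2 changes of 3.35 to 3.87. Each of these 10 rises kept an adjusted p of 0.0296 or less when any 1 library was left out, and 305 of the 1031 rising peaks (29.6%) had a mean score under 10 in untreated control clones.

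Among the largest falls were peaks inside genes of the interferon response itself. Inside DDX58 (RIGI in RefSeq), the gene of the cytosolic RNA sensor RIG-I, a peak 22.6 kb from the TSS (chr9:32500531-32503548) scored 62 and 52, then 18 and 11 in control clones, and 71 and 43, then 14 and 9 in IRF1-guide clones (-2.07 ± 0.27, adjusted p = 0.00136). Inside DDX60L, which encodes an interferon-induced helicase-like protein, a peak at 38.0 kb (chr4:168432499-168442515) scored 236 and 175, then 48 and 39, and 217 and 256, then 72 and 75 (-1.94 ± 0.16, adjusted p = 0.000143). In both peaks every hIFNb library lay below every untreated library in both genotypes, and the adjusted p was 0.00892 or less without any 1 library.

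The peaks over the TSSs of these genes were then read beside them, a look chosen after the values were seen. At the RIGI TSS the peak rose from 59 and 57 to 196 and 158 in control clones and from 43 and 38 to 218 and 161 in those with the IRF1 guide (1.88 ± 0.17, adjusted p = 0.000173). The gene-body and TSS peaks of RIGI thus went in opposite directions. In ZC3HAV1, which encodes the zinc-finger antiviral protein, the body peak scored 26 and 17, then 7 and 6, and 24 and 40, then 14 and 18 (-1.24 ± 0.29, adjusted p = 0.0241, up to 0.0968 with a library left out), and the TSS peak rose by 1.06 ± 0.21 on the log2 scale (adjusted p = 0.0115). The TSS peak of DDX60L scored 423 and 333, then 501 and 491, and 417 and 341, then 565 and 486, with an adjusted p of 0.0598. Over all genes, 64 falling distal peaks lay inside a gene with a TSS peak, and that TSS peak rose for 6 of them (9.38%), with BATF2, PROCR, RIGI, TRIM38 and ZC3HAV1 among them, and fell for 1. The TSS peak of the host gene rose for 29 of the 265 rising distal peaks (10.9%) and for 147 of the 3314 not called (4.44%).

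The remaining falls included a peak 26.9 kb from FOXA1, a pioneer transcription factor of endodermal and ductal cells (chr14:37566266-37568368). It scored 42 and 44, then 19 and 18, and 40 and 33, then 14 and 12 (-1.30 ± 0.22, adjusted p = 0.0051, and at most 0.0248 with a library left out). A peak 42.3 kb from LINC01479 scored 30 and 29, then 9 and 6, and 38 and 26, then 16 and 12 (-1.50 ± 0.27). The libraries of the 2 treatments did not overlap at either peak. The calls of the other 5 large falls (nearest to LOC105373664, LOC105378311, LOC100130701, PRKAB1 and LINC00907) were lost in refits without at least 1 library. The library was control clone 4 untreated at LOC105378311, control clone 1 untreated at LOC100130701, and any of 6 or more at the rest. Those refits did not use the pairing. With the clone block each of the 5 passed (adjusted p of 0.00111 or less).

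**Figure D2:**
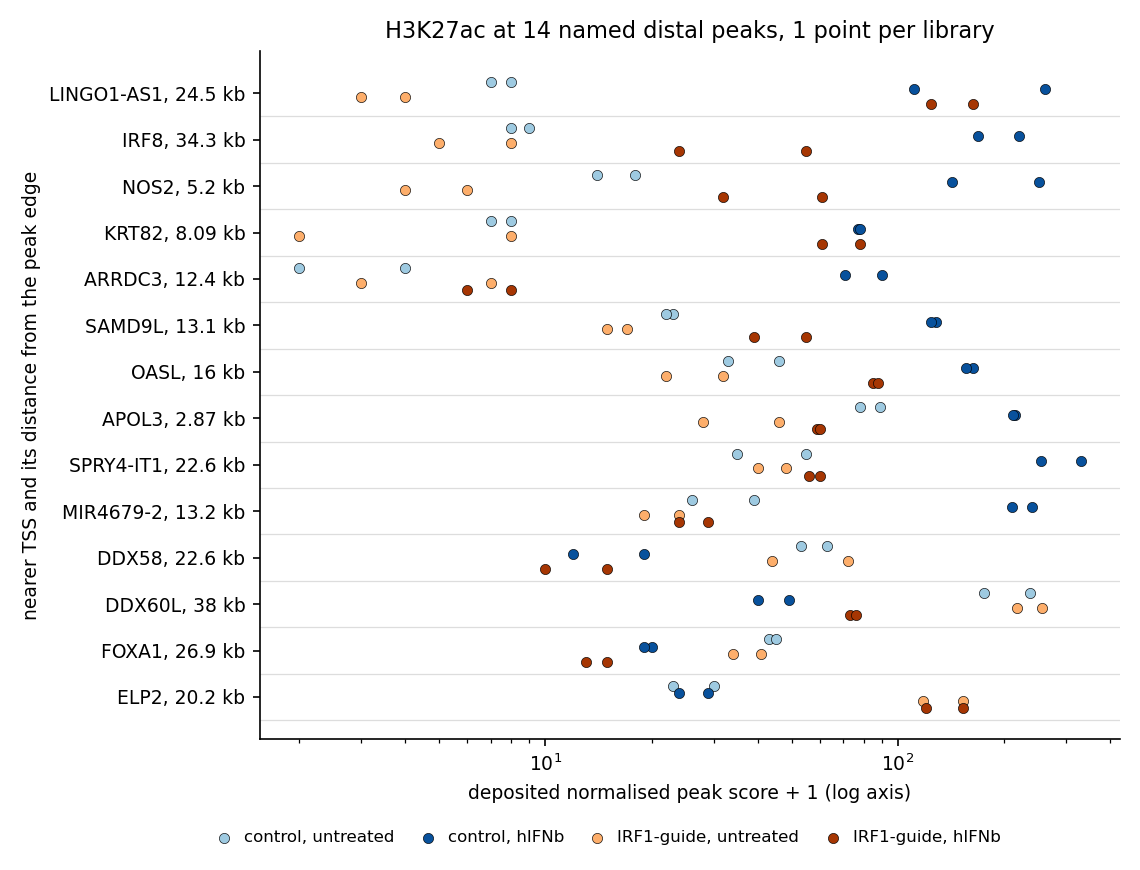
Deposited score plus 1 (horizontal log axis) at 14 named distal peaks (vertical axis: nearer TSS and distance from the peak edge), with 1 point per library and 2 clones per group in each colour. LINGO1-AS1 and KRT82 reach like levels after hIFNb in both genotypes, ARRDC3, SPRY4-IT1 and MIR4679-2 reach high levels in the control clones with hIFNb alone, and the peaks from DDX58 to FOXA1 lie lower in all 4 hIFNb libraries.

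Within the distal range the share of peaks called in the group-means model varied little with distance to the TSS. Rises made up 7.13% of the 1824 peaks over 2 to 5 kb away, 7.26% of the 2808 at 5 to 10 kb, 7.02% of the 4090 at 10 to 20 kb and 6.94% of the 5905 at 20 to 50 kb. Falls made up 2.69%, 2.46%, 2.57% and 3.12% in the same order. Outside the distal range falls were 0.561% of promoter peaks and 5.0% of remote peaks, with rises at 5.9% and 6.55%. With the clone block falls were 6.1% of promoter, 17.6% of distal and 25.3% of remote peaks, and rises 19.1%, 15.8% and 14.3%, so that falls outnumbered rises in distal and remote peaks and promoter peaks had the highest share of rises of the 3 classes. In the group-means model called falls within the distal peaks went with strength, at 0.6%, 1.89%, 2.71% and 5.94% from the weakest to the strongest of 4 equal classes of mean score, while rises stayed between 6.11% and 8.34%. The median log2 change in these classes was 0.04, -0.08, -0.07 and -0.13. The weakest class had a median score of 10.9, and whether falls are harder to call in weak peaks was not tested. Falls were also 1.98% of the peaks inside protein-coding genes and 3.67% of those outside, against 6.91% and 7.2% for rises. Falling peaks had a median width of 6577 bp and rising peaks 3943 bp.

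**Figure D3:**
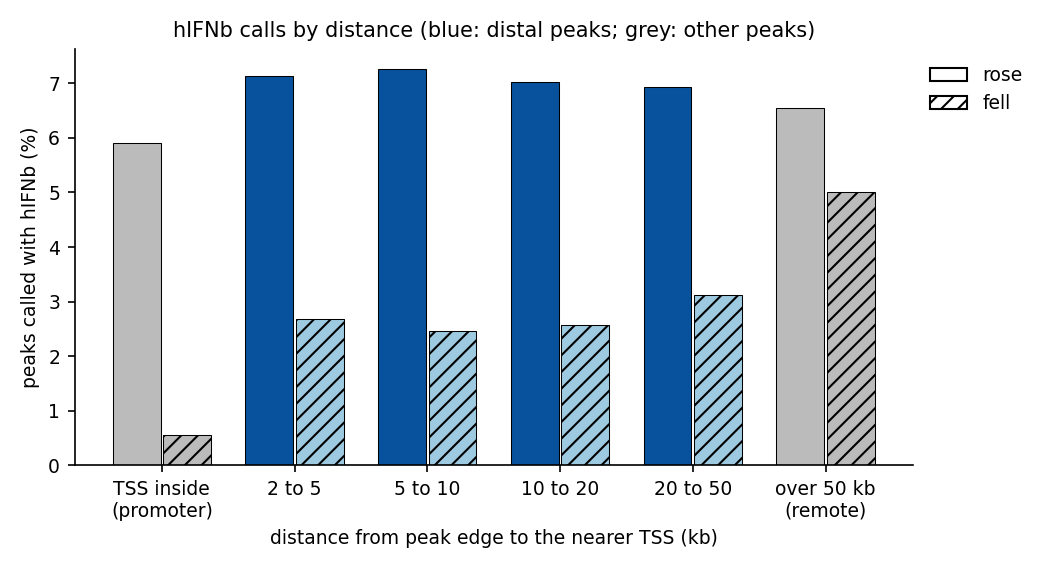
Share of peaks called with hIFNb over all clones (vertical axis, %) as rises (plain bars) and falls (hatched bars), by distance from the peak edge to the nearer TSS (horizontal axis). Distal peaks in blue hold between 6.94% and 7.26% rises at every distance, and their falls of 2.46% to 3.12% lie between those of promoter peaks (0.561%) and remote peaks (5.0%) in grey.

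The shift of distal peaks as a class was small and was tested on 1 value per library. The mean log2 score of distal peaks minus that of promoter peaks was -0.84 and -0.772 in untreated control clones, -0.929 and -0.832 with hIFNb, -0.844 and -0.785 in untreated IRF1-guide clones and -1.032 and -0.952 with hIFNb. It was lower with hIFNb in 4 of 4 clones, by -0.126 on average (UT -0.81 ± 0.037, hIFNb -0.936 ± 0.0825, SD, n = 4; exact two-sided permutation p = 0.0857, smallest possible 0.0286), and the untreated and hIFNb libraries overlapped. With a pseudocount of 5 or with peaks of mean score under 20 left out, the same exact test gave p = 0.0286 (-0.129 and -0.169), and so did the fit without control clone 4 after hIFNb (-0.161). Against remote peaks the distal mean was higher with hIFNb in 4 of 4 clones, by 0.0976 (exact permutation p = 0.0286, the smallest possible). With the clone as a block, an exact sign-flip over 4 clones cannot go below 0.125. It gave 0.125 against remote peaks and against promoter peaks. Without control clone 1 or 4 or IRF1-guide clone 11 or 13 untreated, the permutation p against remote peaks was 0.0571 (differences 0.0938, 0.087, 0.109 and 0.101). Without IRF1-guide clone 11 after hIFNb it was 0.0571 too (0.0726). The share of the total score in distal peaks was 28.6% ± 0.381 untreated and 27.9% ± 0.572 with hIFNb (SD, n = 4; exact two-sided permutation p = 0.114). It was lower with hIFNb in 4 of 4 clones, but control clone 4 was in effect level, at 28.7% in both libraries. The mean change was -0.214 percentage points in control and -1.07 in IRF1-guide clones. The sign-flip over clones gave 0.125, the smallest it can give.

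**Figure D4:**
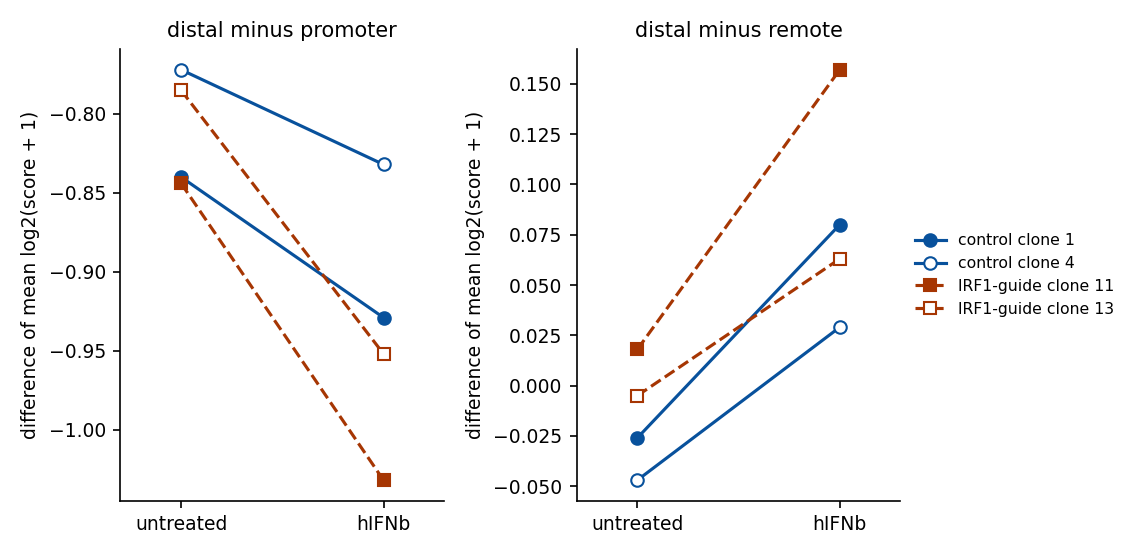
Mean log2(score + 1) of distal peaks minus that of promoter peaks (left) and minus that of remote peaks (right) in each library, on the vertical axis, with lines joining the untreated and hIFNb library of a clone. All 4 clones go down on the left, by 0.126 on average, and up on the right, by 0.0976.

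Control clones alone gave 679 rises and 99 falls with hIFNb among the distal peaks (5.32%), beside 4.74% of all peaks (4.07% higher and 0.676% lower). The clone block gave 2028 and 1773, beside 24.6% (13.4% and 11.3%). The counts depended on each of the 4 control libraries, at 264 and 280 calls in all without clone 1 or 4 untreated and at 109 and 206 without clone 1 or 4 after hIFNb. The largest rise in these clones was 12.4 kb from ARRDC3, an arrestin-domain gene (chr5:91395767-91398947), which scored 3 and 1, then 89 and 70 in control clones (4.82 ± 0.56, adjusted p = 0.0019, at most 0.0408 with a library left out). In IRF1-guide clones the same peak scored 2 and 6, then 7 and 5. A peak 19.1 kb from LOC107985706 on the X chromosome went from 7 and 13 to 153 and 224 (4.14 ± 0.48, adjusted p = 0.0019), beside 29 and 16, then 84 and 32 in IRF1-guide clones. The peaks near LINGO1-AS1 and IRF8 each rose by 4.51 on the log2 scale. Of the 10 largest falls in control clones, the one in DDX60L (-2.21 ± 0.23) was among those still called without any 1 library.

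IRF1-guide clones alone gave 154 rises and 4 falls among the distal peaks (1.08%), beside 1.22% of all peaks (1.2% higher and 0.025% lower). The clone block gave 937 and 987, beside 14.1% (7.44% and 6.64%). Each refit with a library left out gave fewer calls, with the fewest without clone 11 and then without clone 13 after hIFNb. In some of the refits part of the calls were new. LINGO1-AS1 (5.36 ± 0.42, adjusted p = 0.000572), LOC105379391 (3.75 ± 0.34, adjusted p = 0.000938) and LOC105377379 (3.62 ± 0.35, adjusted p = 0.00117) held without any 1 library. The LOC105377379 peak, at 7.18 kb, scored 3 and 4, then 52 and 56 in IRF1-guide clones, and 15 and 9, then 90 and 94 in control clones. The KRT82, NOS2 and PTPRN2-AS1 peaks lost their call without IRF1-guide clone 11 after hIFNb, at adjusted p of 0.0918, 0.0892 and 0.0642. The falls included the peaks in DDX58 (-2.20 ± 0.38) and DDX60L (-1.67 ± 0.23) and one inside MSRB3, nearest to KRT18P60, with scores of 221 and 188, then 82 and 82 (-1.30 ± 0.20). These 3 falls were lost without either IRF1-guide library after hIFNb, in refits that did not use the pairing. Over all left-out libraries their log2 changes stayed at -1.85, -1.55 and -1.19 or lower. With the clone block all 3 passed (adjusted p = 6.98e-06, 1.31e-08 and 2.03e-07).

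Whether the response itself differed between the genotypes was tested as an interaction, and no distal peak passed (0 calls, beside 0.0% of all peaks), with 717 distal peaks at an unadjusted p under 0.05. With the clone as a block 126 distal peaks passed, 116 with a lower and 10 with a higher log2 change in IRF1-guide clones, beside 0.763% of all peaks (0.657% lower and 0.106% higher). Among the 1031 peaks that rose over all clones the median log2 change was 1.72 in the control clones and 1.08 in the IRF1-guide clones, and 780 had the lower change in IRF1-guide clones. Over all 14627 distal peaks the change was lower in IRF1-guide clones at 7639.

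**Figure D5:**
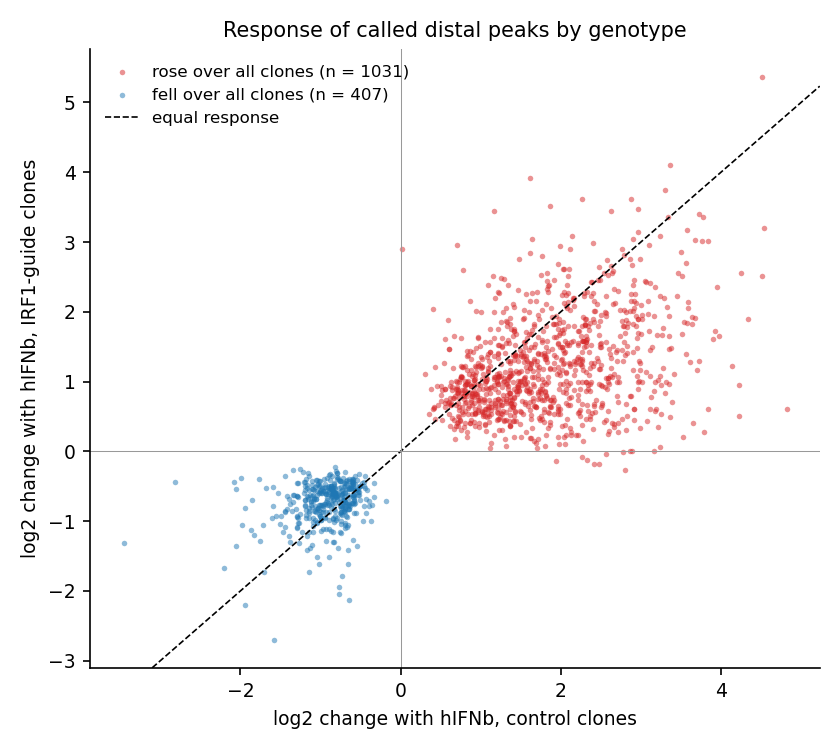
Log2 change with hIFNb in IRF1-guide clones (vertical axis) against that in control clones (horizontal axis) for the 1031 distal peaks that rose and the 407 that fell over all clones, 1 point per peak, with the dashed line marking equal changes. Of the rising peaks 780 lie below the line, and the peaks were chosen on the mean of the axes, so that the picture describes them and tests nothing.

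The 4 peaks with the smallest p of the interaction did not pass in the group-means model (adjusted p = 0.599 each). They were 22.6 kb from SPRY4-IT1 (chr5:142283755-142295729), with 34 and 54, then 329 and 253 in control clones and 39 and 47, then 55 and 59 in IRF1-guide clones, 13.2 kb from MIR4679-2 (chr10:89076589-89089178), with 25 and 38, then 210 and 239, and 18 and 23, then 23 and 28, and near VPS26AP1 and LOC105373903. At the first 2 the control clones after hIFNb stood above the other 6 libraries, which overlapped or lay close together. The differences in log2 change were -2.32 ± 0.39 and -2.52 ± 0.42, and with the clone block both passed (adjusted p = 0.000155 and 0.000271). The VPS26AP1 peak, inside GRAMD1C, scored 7 and 10, then 76 and 53, and 7 and 11, then 5 and 4 (-3.62 ± 0.60). The block also called a peak inside DNAJC7, a co-chaperone gene, with 148 and 144, then 315 and 331, and 91 and 136, then 83 and 129 (adjusted p = 0.002, against 1.0). In the other direction the block called a peak 9.99 kb from MIR3199-1, with 95 and 87, then 178 and 233 in control clones, and 49 and 26, then 200 and 221 in IRF1-guide clones (1.37 ± 0.27, adjusted p = 0.0128, against 1.0).

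Untreated, no distal peak differed between IRF1-guide and control clones at the threshold (0 calls, beside 0.0% of all peaks), with 2058 at an unadjusted p under 0.05. The clone block gave 12 higher and 24 lower peaks, beside 0.213% of all peaks (0.0594% and 0.153%). The 4 smallest p belonged to peaks near LOC105372399, ELP2, LOC112268038 and SNAI1P1 (adjusted p = 0.0532 each, up to 0.328 with a library left out). The peak inside ELP2, a subunit of the Elongator complex (chr18:36150112-36157561), scored 22 and 29 in untreated and 23 and 28 in hIFNb-treated control clones, and 117 and 152, then 119 and 152 in IRF1-guide clones. It stood apart by genotype in both treatments and was alike within each. The peak 4.57 kb from LOC105372399 scored 125 and 101, then 280 and 217 in control clones, and 26 and 23, then 38 and 39 in IRF1-guide clones (-2.15 ± 0.24 untreated). The share of the total score in distal peaks was 28.3% in control and 28.2% in IRF1-guide clones (exact permutation p = 0.667 on clone means, smallest possible 0.333).

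After hIFNb, 397 distal peaks were lower and 36 higher in IRF1-guide than in control clones (2.96%), beside 2.43% of all peaks (2.19% lower and 0.238% higher). Promoter peaks gave 0.814% and remote peaks 4.06%. The clone block gave 461 lower and 70 higher, beside 3.09% of all peaks (2.64% and 0.441%). These calls rest on every library of the comparison. No peak was called without control clone 1 or without control clone 4 after hIFNb. Without IRF1-guide clone 11 or 13 after hIFNb far fewer were called, and some of those were new. There were 288 calls when peaks of mean score under 20 were left out, and 700 with a pseudocount of 5. The 397 lower peaks had medians of 22 and 21, then 83 and 80 in control clones, and 10 and 11, then 18 and 17 in IRF1-guide clones. The libraries that chose them also enter their hIFNb response, so the responses are given as values only: the median log2 change with hIFNb was 1.68 in control and 0.39 in IRF1-guide clones. In the untreated libraries 358 of the 397 had the lower mean in IRF1-guide clones (median -0.86), against 7673 of all 14627 distal peaks. These libraries come from the same clones and move with the treated ones, so this count is a description and not independent of the choice. The 36 higher peaks had medians of 22 and 22, then 13.5 and 15.5 in control clones, and 47.5 and 71.5, then 50.5 and 62.5 in IRF1-guide clones.

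By the size of the difference, the lower peaks after hIFNb were led by one 43.4 kb from MTIF2P1, with 52 and 49 in control and 1 and 1 in IRF1-guide clones after hIFNb (-4.69 ± 0.54, adjusted p = 0.00655). Untreated, it scored 6 and 8, and 0 and 0. A peak 34.7 kb from PCNX1 scored 38 and 42 against 3 and 0 (-4.36 ± 0.71, adjusted p = 0.0144), and untreated 1 and 2 against 2 and 3. A peak 13.6 kb from KPNA5, an importin gene, scored 39 and 52 against 5 and 1 (-3.73 ± 0.59, adjusted p = 0.013), and untreated 4 and 4 against 5 and 3. The PCNX1 and KPNA5 peaks thus had like scores in the untreated libraries, while the peak 2.72 kb from OR4C6, an olfactory receptor gene, differed in both treatments, with 71 and 88, then 56 and 77 in control clones and 7 and 0, then 7 and 1 in IRF1-guide clones (-4.06 ± 0.87 after hIFNb, adjusted p = 0.0407). The higher peaks included ELP2 (2.36 ± 0.28, adjusted p = 0.00658), one inside EIF4E2, a cap-binding protein gene, with 21 and 20, then 33 and 32, and 63 and 145, then 117 and 168 (2.08 ± 0.37, adjusted p = 0.02), and one 2.17 kb from PLXND1, a semaphorin receptor gene, with 49 and 28, then 41 and 29, and 92 and 158, then 127 and 149 (1.96 ± 0.35, adjusted p = 0.0197). At ELP2, EIF4E2 and PLXND1 the guide clones lay above the control clones in both treatments. Each of these 7 calls was lost without either control library after hIFNb, and the highest adjusted p with a library left out ran from 0.0979 to 0.264.

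Gene lists were then read through the distal peaks whose nearer TSS belonged to them. The lists were chosen with earlier results of these data known, so their shares describe them and test nothing. Of 64 interferon-stimulated antiviral genes 19 were the nearer TSS of a distal peak, with 31 peaks, of which 8 rose (25.8%) and 4 fell (12.9%) with hIFNb over all clones, beside 7.05% and 2.78% of all distal peaks. The clone block called 15 rises (48.4%) and 7 falls (22.6%), beside 15.8% and 17.6% of all distal peaks, so that the share of falls was near that background. Their median log2 change was 0.56, against -0.07 over all distal peaks and 0.0 over all peaks. The peak 13.1 kb from SAMD9L, an antiviral restriction factor (chr7:93161473-93169949), scored 22 and 21, then 127 and 123, and 16 and 14, then 38 and 54 (2.01 ± 0.20, adjusted p = 0.000318). The peak 16.0 kb from OASL, a 2′-5′-oligoadenylate synthetase-like protein (chr12:121055282-121062456), scored 45 and 32, then 162 and 155, and 21 and 31, then 84 and 87 (1.87 ± 0.20, adjusted p = 0.000384). At both peaks the control clones after hIFNb lay above the guide clones after hIFNb, which lay above the untreated libraries. The peak 9.19 kb from ISG20, an exonuclease that degrades viral RNA, scored 46 and 39, then 81 and 78, and 47 and 41, then 98 and 90 (0.99 ± 0.17, adjusted p = 0.00567), with the guide clones highest.

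TNFSF10, which encodes the death ligand TRAIL, had 3 distal peaks and all 3 rose. The one at 29.7 kb (chr3:172486991-172493696) scored 22 and 30, then 101 and 119, and 26 and 34, then 68 and 122 (1.82 ± 0.23, adjusted p = 0.00113). Those at 26.3 and 5.8 kb changed by 1.89 ± 0.40 and 0.91 ± 0.20, with adjusted p of 0.0165 and 0.0211 that rose to at most 0.0613 and 0.0757 when a library was left out. The peaks nearest to RTP4 (2.28 ± 0.59) and to CXCL11, a CXCR3 ligand (0.97 ± 0.26), rose with an adjusted p of 0.0386 and 0.0448, lost without any of 6 or 7 libraries (at most 0.117 and 0.139). The 4 falls of the list were the peaks in DDX58 and ZC3HAV1 and 2 in DDX60L, the second at 26.0 kb with 82 and 45, then 20 and 15, and 88 and 64, then 25 and 36 (-1.52 ± 0.26, adjusted p = 0.00519). All 4 lay inside the gene that named them.

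Of 32 interferon signalling genes 15 named 22 distal peaks, of which 6 rose (27.3%) and 1 fell (4.55%), beside 7.05% and 2.78% of all distal peaks, with a median log2 change of 0.19. With the clone block 7 rose (31.8%) and 3 fell (13.6%), beside 15.8% and 17.6%. Besides IRF8, a narrow peak 5.12 kb from IRF9, the DNA-binding subunit of the STAT complex, scored 1 and 1, then 7 and 13, and 0 and 0, then 8 and 6 (2.70 ± 0.46, adjusted p = 0.0059). A peak 4.97 kb from SOCS3, a feedback inhibitor of cytokine receptors, scored 1 and 2, then 8 and 10, and 1 and 4, then 13 and 15 (2.13 ± 0.43, adjusted p = 0.0134). Both rose from scores near 0 in each genotype. Inside STAT3 a peak 47.5 kb from the TSS scored 17 and 11, then 75 and 53, and 10 and 17, then 25 and 18 (1.39 ± 0.28, adjusted p = 0.013), lost without control clone 1 or IRF1-guide clone 11 after hIFNb (at most 0.0623). The IFNGR2 peak, near a receptor chain for interferon gamma, rose by 0.67 ± 0.16 and a second peak near IRF8 by 2.15 ± 0.55, both lost without most libraries (at most 0.0949 and 0.115). The fall was inside BATF2, with 162 and 114, then 90 and 64, and 120 and 138, then 85 and 74 (-0.76 ± 0.18, adjusted p = 0.0287, up to 0.109 with a library left out), beside a rise of the broad peak over the BATF2 TSS (0.70 ± 0.12, adjusted p = 0.00561).

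Of 24 genes of MHC class I and antigen processing 8 named 13 distal peaks, with a median log2 change of 0.46. In the group-means model 3 of these peaks rose (23.1%) and 0 fell, beside 7.05% and 2.78% of all distal peaks. The block called 5 rises (38.5%) and 1 fall (7.69%), beside 15.8% and 17.6%. The 3 rises in the group-means model lay 8.28 kb from ERAP2, an aminopeptidase that trims peptides for MHC class I, and near HLA-C and HLA-E. The ERAP2 peak scored 6 and 5, then 29 and 34, and 9 and 10, then 15 and 12 (1.39 ± 0.27, adjusted p = 0.0118, at most 0.0484 with a library left out). The HLA-C and HLA-E peaks (1.19 ± 0.27 and 0.83 ± 0.19) reached an adjusted p of 0.0851 and 0.0924 at most with a library left out. The APOL3 peak (chr22:36155545-36163310), 1 of 2 distal peaks of the 13 GBP and APOL genes, scored 88 and 77, then 214 and 211, and 27 and 45, then 58 and 59 (1.04 ± 0.19, adjusted p = 0.0079). Control clones were higher there in both treatments.

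Each list outside the interferon response gave at most 2 calls in the group-means model. None of the 5 distal peaks of NF-kB and inflammatory genes, 26 of basal and mesenchymal genes, 4 of glycolysis genes, 9 of cell cycle genes or 2 of housekeeping genes was called with hIFNb over all clones, beside 9.83% of all distal peaks. The clone block called 1 fall, 6 rises and 5 falls, 4 falls, 1 rise and 1 fall, and 1 fall in these lists, in that order, beside 15.8% rises and 17.6% falls among all distal peaks. The 4 glycolysis peaks had a median log2 change of -0.63, and all 4 (100%) were falls with the block. For the 26 basal and mesenchymal peaks the block shares were 23.1% rises and 19.2% falls. AP-1 genes had 1 rise among 8 peaks (12.5%), near BATF3 (0.91 ± 0.20). Among 11 peaks of ductal and endodermal transcription factors FOXA1 and SOX9 fell (18.2%, beside 2.78% of all distal peaks), the latter at 29.7 kb with 53 and 38, then 30 and 21, and 39 and 37, then 22 and 16 (-0.90 ± 0.23, adjusted p = 0.0397). Among 21 peaks of epithelial surface and mucin genes a peak 40.2 kb from MUC13 rose (1.47 ± 0.30) and one inside TSPAN8, a tetraspanin gene, fell (-1.26 ± 0.34), 4.76% each. With the block these 3 lists had 2 rises and 1 fall, 1 and 4, and 3 and 4. The BATF3, SOX9, MUC13 and TSPAN8 calls were each lost without at least 3 libraries, at adjusted p of at most 0.087, 0.14, 0.0617 and 0.135.

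Of the metabolic lists, xenobiotic and retinoid genes had 18 distal peaks with 1 rise and 1 fall (5.56% each) in the group-means model. Cholesterol and fatty acid genes had 20 with 1 rise (5.0%) and 0 falls in that model. These shares were near or below the 7.05% and 2.78% of all distal peaks save for the xenobiotic fall. The block gave 2 rises and 5 falls (11.1% and 27.8%), and 2 rises and 1 fall (10.0% and 5.0%), beside 15.8% and 17.6%. The fall was 24.6 kb from ALDH1A1, a retinaldehyde dehydrogenase gene (chr9:72977646-72986814), with 151 and 123, then 69 and 57 in control clones, and 173 and 182, then 115 and 140 in IRF1-guide clones (-0.79 ± 0.16, adjusted p = 0.0117, up to 0.0543 with a library left out). The same peak was higher in IRF1-guide than in control clones after hIFNb (1.01, adjusted p = 0.0432), where the groups did not overlap, and that call was lost without either control library after hIFNb. The rises were near TIPARP, a target gene of the aryl hydrocarbon receptor, with 8 and 8, then 35 and 28, and 5 and 7, then 6 and 14 (1.20 ± 0.33, adjusted p = 0.0491), and near ACSL4, a ligase for polyunsaturated fatty acids, with 0 and 1, then 14 and 10, and 0 and 0, then 1 and 1 (2.09 ± 0.55, adjusted p = 0.0401). The TIPARP and ACSL4 calls were lost without any of 7 or more libraries (at most 0.145 and 0.136). Of the markers of other cell types, 12 peaks gave 1 fall (8.33%), near LUM (-1.19 ± 0.30), and with the block 2 rises and 1 fall.

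Distal peaks near 1 TSS sometimes rose together. Of the 973 nearer TSSs with a rising distal peak 51 had 2 or more and 4 had 3 or more, and 5 had both a rise and a fall. The 4 were chosen after their values were seen. LOC101928855, inside the RPTOR gene on chromosome 17, had 6 rising peaks of 7 over chr17:80769416-80842207, with log2 changes from 0.93 to 2.31. The one with the smallest log2 change of the 6 (chr17:80823609-80838027) scored 206 and 190, then 469 and 429, and 186 and 203, then 338 and 290 (0.93 ± 0.12, adjusted p = 0.00135). ANKRD33B had 3 of 5 (0.84 to 1.38), FYTTD1 3 of 3 inside the neighbouring RUBCN gene (0.85 to 1.16), and TNFSF10 3 of 3. These peaks share a neighbourhood and are not separate evidence of a change.

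A peak over the nearer TSS itself was present for 5032 distal peaks, and 6.26% of those TSS peaks rose with hIFNb. For the 325 rising distal peaks among them the TSS peak rose in 63 (19.4%) and fell in 1, with a median log2 change of 0.26 at the TSS and 1.33 at the distal peak. For the 120 falling ones the TSS peak fell in 12 (10.0%), against 1.85% of all, and rose in 5. OASL and TNFSF10 were among those where both changed, with TSS peaks of 106 and 119, then 292 and 273, and 62 and 114, then 213 and 223 (1.34 ± 0.19) and of 99 and 77, then 284 and 247, and 72 and 125, then 206 and 242 (1.41 ± 0.19). The SAMD9L TSS peak went from 177 and 125 to 300 and 260 and from 55 and 169 to 174 and 304 and did not pass (adjusted p = 0.0593). Of the 120 peaks lower in IRF1-guide clones after hIFNb that had a peak at the nearer TSS, 4 had a lower TSS peak too (3.33%, against 1.07% of all 5032). Neighbouring peaks share the library, and the shares are descriptions with no test.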

How the data were processed

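H3K27ac was measured in 8 libraries. The submitters' processing notes name Bowtie2 and GRCh38 (hg38), and the peak caller, read counter and scaling were not given in the sources used here. In the deposited table each peak has a score for every library, a normalised count that the authors rounded to whole numbers (as the values show), and the distances from its edge to the flanking TSSs. The depth behind a score is therefore unknown, and no count model was used.

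Scores were analysed as log2(score + 1), on which scale changes of low peaks are understated. Every peak scored above 0 in 2 or more libraries. Contrasts came from a group-means model of the 4 groups in limma 3.58.1 (R 4.3.3), with eBayes moderation along a trend, Benjamini-Hochberg adjusted p-values over all 31961 peaks and calls at 0.05. Errors beside log2 changes are SE. On simulated scores for 31961 peaks and the hIFNb response over all clones, changes of 1 and 2 (log2) were recovered at 70% and 100%, with 9 false calls. The simulated libraries were independent negative binomial draws with the same dispersion for every peak and no clone effect. Changes were put only in peaks of mean score of at least 20. The real libraries are paired and many peaks are weaker, so these figures are not the power or error rate of the real comparisons. Replicates are clones, and the untreated and hIFNb libraries of a clone are paired: around the group means they moved together across peaks, with correlations of 0.437 (control) and 0.392 (IRF1-guide). The clone was fitted as a block in an alternative, as a fixed term for hIFNb contrasts and as a correlation (0.492) between genotypes. Single values per library were compared with exact permutation tests. The other alternatives were a pseudocount of 5, a minimum mean score of 20, equal library totals and leaving out each library. For single peaks these were refits of the group-means model, which does not use the pairing. Leaving out a library left 1 library in its group, so a lost call there does not speak for the paired fit.

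The members and the 15 gene lists were chosen with earlier results of these data known. Named peaks were, where a comparison had calls, at most 10 rises and 10 falls, the largest by log2 among calls with separate groups and a higher group mean of at least 20, 1 per nearer TSS; up to 3 peaks of smallest p per list; and, without calls, the 4 of smallest p. Further peaks of the lists that passed, peaks over RefSeq starts, TSS peaks of named genes, peaks called by the block and TSSs with 3 or more rises were chosen after their values were seen. Of the 9864 nearer-TSS names 9167 matched a RefSeq symbol. Sequences are from RefSeq (GRCh38.p14); no genome was at hand, so that peaks without a start window have none here. A few of the peaks that these rules name are not reported here.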

Additional observations from a re-analysis of the deposited data

How the results depend on the processing

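Fitting the clone as a replicate block, which uses the pairing of each clone's libraries, raised the number of distal calls to 4879 for hIFNb over all clones, 3801 in control clones, 1924 in IRF1-guide clones, 126 for the difference of the responses, 36 between the genotypes untreated and 531 after hIFNb. The share of rises among the calls went from 71.7% to 47.2% over all clones. With each library left out in turn, the calls ran from 693 to 1057 over all clones, from 109 to 771 in control clones, from 12 to 138 in IRF1-guide clones and from 0 to 477 between the genotypes after hIFNb, and stayed at 0 for the difference of responses and for the genotypes untreated. The pseudocount of 5 and the minimum mean score of 20 moved the calls between the genotypes after hIFNb to 700 and 288. Distal minus promoter passed with both of these settings (-0.129 and -0.169, exact permutation p = 0.0286, which does not use the pairing). It ranged from -0.161 to -0.0941 over left-out libraries, and with the main settings its paired sign-flip p was 0.125. Distal minus remote (0.0976) ranged from 0.0726 to 0.115, and in the paired sign-flip its p was 0.125. The genotype difference in the distal share of the score, -0.167 percentage points, ranged from -0.552 to 0.218 and reversed without control clone 4 (0.218) and without IRF1-guide clone 11 (0.13). The cause of these changes was not tested, except that leaving out a library leaves fewer samples. Of the single peaks named, 170 kept their side of the threshold with the block and 29 passed newly, and without control clone 1 after hIFNb 81 lost their call. Groups of 2 clones limit the precision of every comparison, and the read depth behind the scores is unknown.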
